A study of Homo sapiens with 15 samples.

Results

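The DNA replication machinery was followed as 45 genes across 5 sublines of VCaP, an established prostate cancer cell line. The genes were chosen by name and matched from the gene identifier to its symbol, and all 45 of the 45 were found among the 58381 genes counted. They fall into 9 roles, which are the MCM helicase (6 genes), origin recognition (4), helicase loading (3), helicase activation (7), polymerases and primase (9), the sliding clamp with its loader and Okazaki fragment enzymes (7), single-strand binding (3), nucleotide supply (4) and E2F transcription factors (2). The rule uses names and no measured value, although the list was chosen with earlier results of these data known. All 45 passed the filter on low counts.

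RNA from 15 libraries was sequenced, 3 replicates per subline, and the deposited values are fragment counts per gene. VCaP-T was grown for 7 months in RPMI 1640 with charcoal-stripped serum (DCC-FBS) and 10 nM testosterone, and the labels call it androgen-sensitive. The other 4 sublines descend from it and are labelled resistant. VCaP-CT is VCaP-T after 10 more months, at 0.1 nM testosterone by the protocol. The sample labels give 10 nM for these months too, and the difference could not be settled here. Enzalutamide (ENZ), an antiandrogen, was applied to VCaP-CT at 10 µM to give VCaP-CT-ER. VCaP-CT-BR came from VCaP-CT under the older antiandrogen bicalutamide, and its label also names ENZ given once bicalutamide had failed. The study describes it by bicalutamide and names ENZ in this branch only for VCaP-CT-BR-ER. Whether VCaP-CT-BR cells received ENZ could not be settled here. VCaP-CT-BR-ER is the bicalutamide-treated line after it had regained growth under ENZ. The tree therefore has 4 steps: the first leads to VCaP-CT, 2 branches leave it for VCaP-CT-ER (the ENZ branch) and VCaP-CT-BR (the bicalutamide branch), and the last turns VCaP-CT-BR into its descendant VCaP-CT-BR-ER. The sources describe 1 derivation per subline, so drug, time in culture and derivation cannot be told apart. The study calls the 3 libraries of a subline biological replicates, and the sources used here do not say whether each was a culture of its own, so p-values measure the spread between these libraries. In bulk RNA, fewer replicating cells and less of these transcripts per cell cannot be told apart.

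Before S phase, the origin recognition complex together with CDC6 and CDT1 loads the ring-shaped MCM helicase onto origins, and geminin (GMNN) blocks CDT1 once replication has begun. The kinase CDC7 with its activator DBF4, and then CDC45 and the GINS complex, turn the loaded rings into moving helicases. Polymerase alpha with primase starts each strand, polymerases epsilon and delta extend it on the clamp PCNA, RPA covers exposed single strands, and ribonucleotide reductase supplies the deoxynucleotides. Many of these genes are transcribed ahead of S phase under E2F factors.

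Library totals lay between 33665716 and 46935279 fragments. Libraries of 1 subline correlated at 0.9952 or more and libraries of different sublines at 0.9829 or less across genes, so none stood with another subline. Of the prostate epithelial markers, KLK3, TMPRSS2, HOXB13, KRT8, KRT18, EPCAM and ERG were counted in every subline. Of the markers of other cells, COL1A2 and CD3E were at 0 in all 15 libraries, and the summed blood markers stayed at 0.16 CPM (counts scaled to the library total) or less. The summed fibroblast markers ranged from 7.61 to 8.88 CPM for VCaP-T, 9.96 to 10.9 for VCaP-CT, 24.3 to 25.3 for VCaP-CT-BR, 189 to 220.0 for VCaP-CT-ER and 217 to 249 for VCaP-CT-BR-ER. LUM carried nearly all of that sum in the ENZ-resistant sublines, at 235 CPM for VCaP-CT-BR-ER, while COL1A1 did not exceed 7.29 CPM in any library. The endothelial sum, carried by PECAM1, was 2.84 to 3.04 CPM for VCaP-T and 2.02 to 3.06 for VCaP-CT, and at most 0.24 in the libraries of the other 3 sublines. Mitochondrial transcripts took a mean of 8.28% of counts in VCaP-T, 7.35% for VCaP-CT, 9.37% for VCaP-CT-ER, 7.81% for VCaP-CT-BR and 8.70% for VCaP-CT-BR-ER. The part of these differences in the results was not tested.

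The replication genes were lowest in the testosterone-grown subline. Their summed level was 3022 ± 49.4 CPM for VCaP-T, 3961 ± 100.4 for VCaP-CT, 4449 ± 38.6 for VCaP-CT-ER, 4580 ± 81.8 for VCaP-CT-BR and 4598 ± 41.5 for VCaP-CT-BR-ER (SD, n = 3). VCaP-T held the lowest subline mean for 33 of the 45 genes and the highest for 1, ORC3. The highest mean stood in VCaP-CT-ER for 21 genes, in VCaP-CT-BR-ER for 12, in VCaP-CT-BR for 8 and in VCaP-CT for 3. Every gene differed somewhere among the sublines (edgeR's quasi-likelihood F test, adjusted p under 0.05 for 45 of 45), but so did 88.9% of all genes tested. The ratio of the highest to the lowest subline mean ran from 1.22 for MCM7 and TK1 to 3.31 for POLA1. Corrected for exon length, PCNA was the most abundant of the 45, at a mean of 191 CPM per kilobase over the sublines, followed by POLD2 at 114 and MCM7 at 72.1. GINS3 was the least abundant, at 2.61 CPM per kilobase. Over the 15 libraries, 83.2% of the 990 pairs of replication genes had a correlation above 0, with a median r of 0.59, which describes libraries that share 5 sublines and is no test. ORC3, PRIM1 and MCM7 were the genes whose median r with the others was below 0, at −0.32, −0.23 and −0.17.

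**Figure D1:**
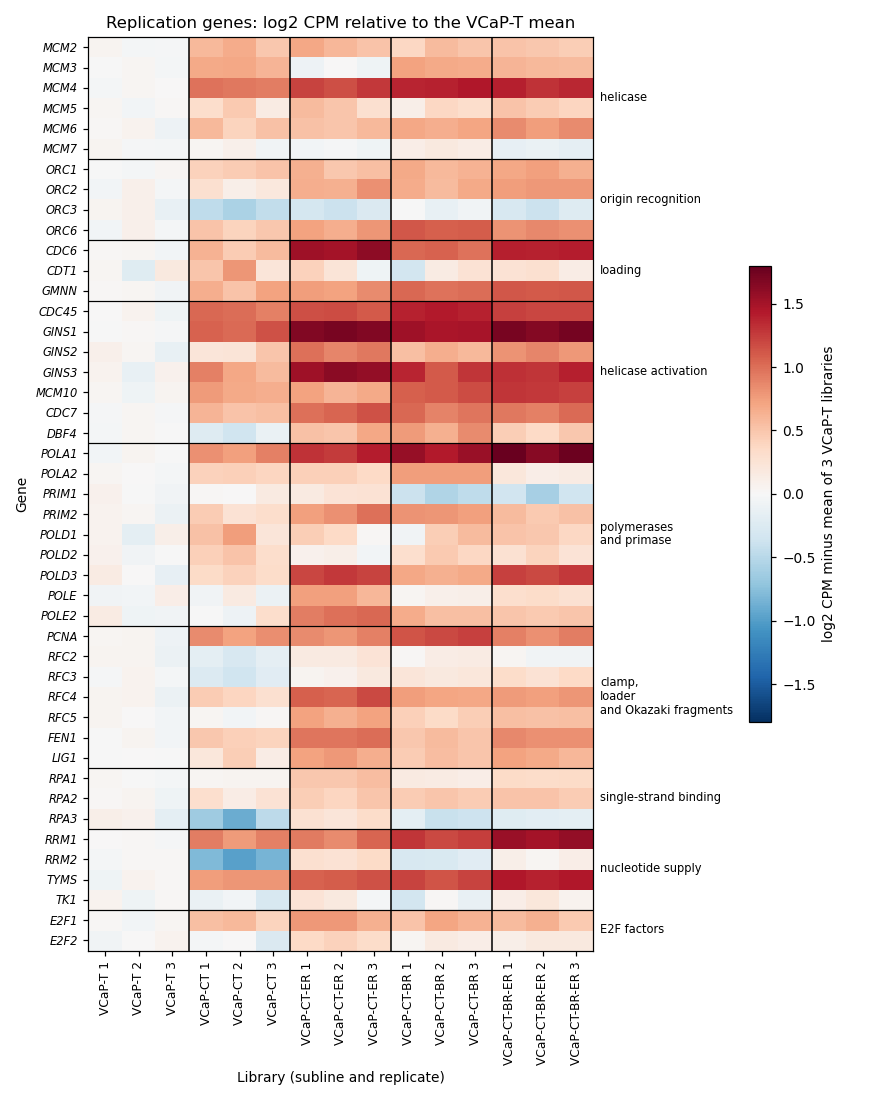
Each row is 1 replication gene and each column 1 library. Colour gives log2 CPM minus the mean of the 3 VCaP-T libraries, red for higher and blue for lower, with roles separated by lines. Most rows turn red to the right of VCaP-T, while ORC3, RPA3 and RRM2 are blue in the VCaP-CT libraries and PRIM1 is blue in the 6 libraries of the bicalutamide branch.

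Against VCaP-T, each later subline carried more transcripts of most replication genes. All tests below are from 1 edgeR fit of the 15 libraries, adjusted over 19621 genes, with an adjusted p under 0.05 counted as a call. In VCaP-CT, 31 of 45 genes were higher and 6 lower than in VCaP-T, with a median log2 fold change of 0.42, beside 33.1% and 32.2% of all genes tested and an all-gene median of 0.03. In VCaP-CT-ER, 37 were higher and 1 was lower (all genes 34.3% and 34.7%), with a median of 0.65. In VCaP-CT-BR, 36 were higher and 3 lower (all genes 35.9% and 35.3%), with a median of 0.61. In VCaP-CT-BR-ER, 37 were higher and 3 lower (all genes 34.9% and 35.3%), with a median of 0.56. The share of replication genes called higher thus stood above the background in each, at 68.9%, 82.2%, 80.0% and 82.2%, and the share called lower below it. Because these 4 comparisons use the same VCaP-T libraries, they are not separate evidence. Across them, 27 genes were higher in all 4 later sublines, as were 17.9% of all genes tested. POLA1 showed the largest log2 difference from VCaP-T in VCaP-CT-BR-ER, 1.73 ± 0.06 (SE), and GINS1 for VCaP-CT-ER, 1.64 ± 0.05. CDT1 and TK1 were called in none of the 3 antiandrogen-resistant sublines (all genes 12.5%). The 1 gene lower in VCaP-CT-ER than in VCaP-T became 3 without VCaP-T replicate 3 and 2 without VCaP-CT-ER replicate 2.

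From VCaP-CT to VCaP-CT-ER, 28 replication genes were higher and 4 lower (all genes 29.6% and 31.2%), with a median log2 fold change of 0.26. From VCaP-CT to VCaP-CT-BR, 32 were higher and 2 lower (all genes 26.1% and 27%), with a median of 0.33. In the last step, which ends at VCaP-CT-BR-ER, 17 were higher, 8 lower and 20 not called (all genes 21.2% and 21.7%), with a median of 0.11. The all-gene medians of these 3 steps were −0.02, −0.02 and 0.00. The 3 libraries of each side did not overlap for 38, 33, 35 and 30 of the 45 genes in the 4 steps, beside 66.5%, 63.4%, 57.6% and 53.1% of all genes tested. A group of 15 genes was higher in the first 3 steps alike (all genes 4.38%), and 7 of them, CDC6, GINS1, GINS2, LIG1, POLA1, POLD3 and TYMS, were higher in all 4 (all genes 1.14%). From VCaP-CT, 23 genes were higher in both branches (all genes 15.1%). E2F1, FEN1, POLE, RPA1 and TK1 were called higher in the ENZ branch and not in the bicalutamide branch, and CDC45, GMNN, MCM10, MCM6, ORC1, ORC3, PCNA, POLA2 and RRM1 in the bicalutamide branch and not in the ENZ branch, patterns that 14.5% and 11% of all genes showed. The difference between the branches was not tested. Some of the small counts of lower genes hung on 1 library. The 4 lower in VCaP-CT-ER became 2 without VCaP-CT replicate 1, VCaP-CT replicate 2 or VCaP-CT-ER replicate 3, and the 2 lower in VCaP-CT-BR became 1 without VCaP-CT replicate 2 and 4 without VCaP-CT replicate 3.

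**Figure D2:**
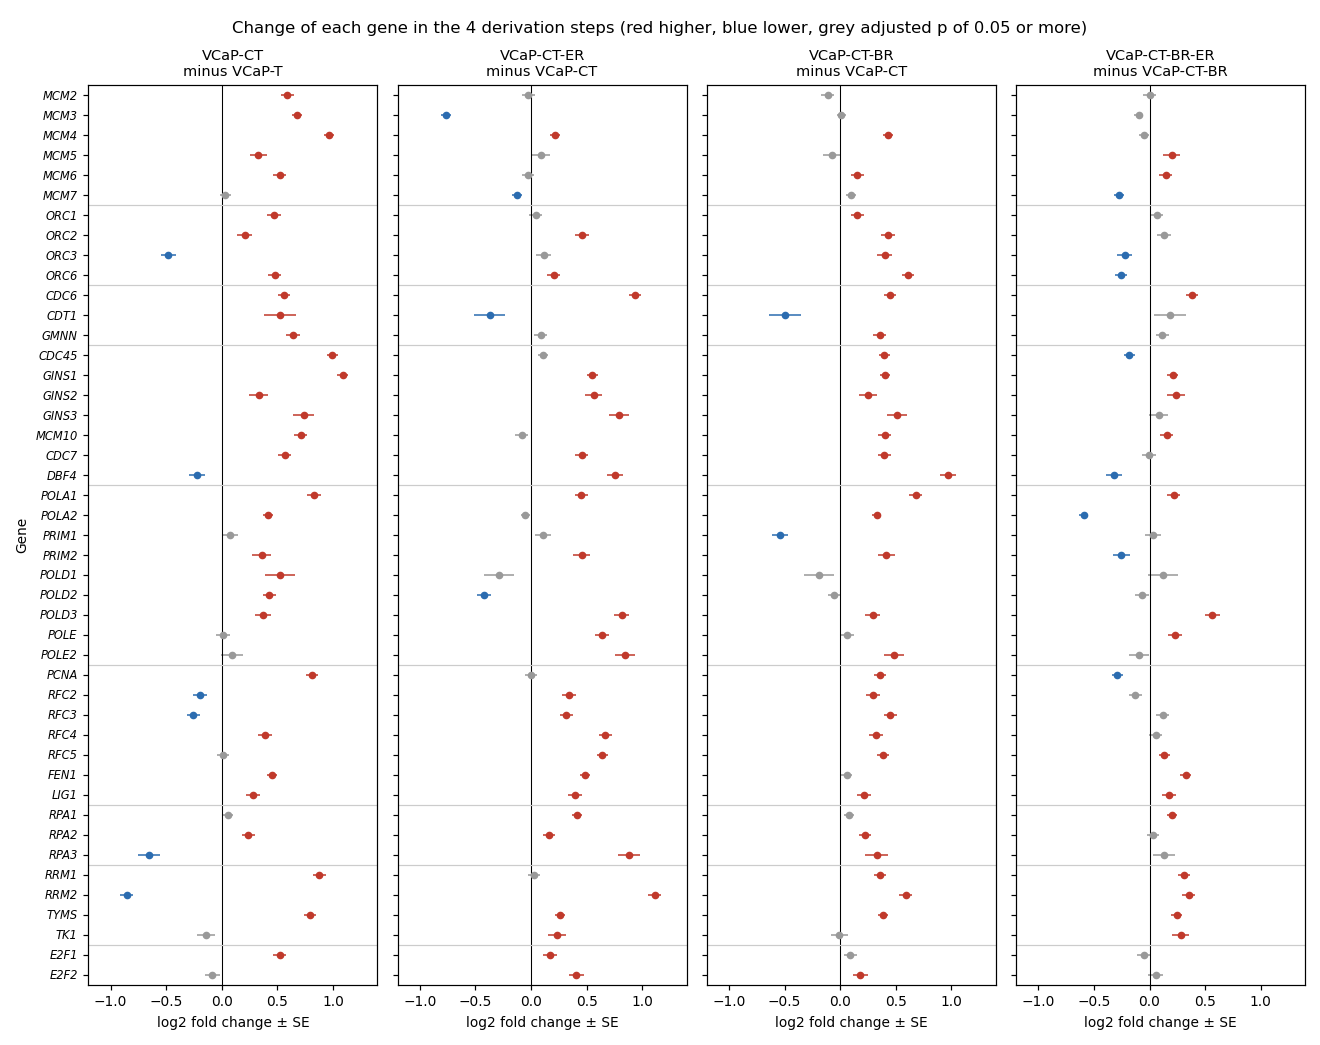
Each panel is 1 derivation step and each point 1 replication gene, with its log2 fold change on the x axis and a bar of 1 SE. Red points were called higher, blue lower and grey not called. The panel of VCaP-CT-BR-ER against VCaP-CT-BR holds 17 red, 8 blue and 20 grey points, while each other panel holds 28 to 32 red points.

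To show the control regions of the genes that moved most, the 250 bases before the start site are printed from RefSeq (GRCh38.p14), 5′ to 3′ on the gene's strand. RRM2, GINS1, CDC45, DBF4 and CDC6 had the largest changes in a step among the genes given with every library, and MCM6 was added after the motif counts were seen, as the gene with the most E2F words. CDC45 has 3 windows in RefSeq and RRM2 has 2, of which 1 each is printed. The printed windows of RRM2, CDC45, DBF4 and CDC6 lie within or reach into the annotated span of the counted gene. Capitals mark E2F words and CCAAT boxes on either strand. The windows lie at chr2:10122489-10122738 (RRM2, plus strand), chr20:25407423-25407672 (GINS1, plus), chr22:19479670-19479919 (CDC45, plus), chr7:87876243-87876492 (DBF4, plus), chr17:40287629-40287878 (CDC6, plus) and chr2:135876444-135876693 (MCM6, minus).
RRM2: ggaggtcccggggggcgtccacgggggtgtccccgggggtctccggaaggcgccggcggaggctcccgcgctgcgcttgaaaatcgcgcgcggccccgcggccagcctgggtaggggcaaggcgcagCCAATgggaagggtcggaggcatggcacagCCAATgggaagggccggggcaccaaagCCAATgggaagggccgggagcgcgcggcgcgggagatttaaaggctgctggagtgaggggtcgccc
GINS1: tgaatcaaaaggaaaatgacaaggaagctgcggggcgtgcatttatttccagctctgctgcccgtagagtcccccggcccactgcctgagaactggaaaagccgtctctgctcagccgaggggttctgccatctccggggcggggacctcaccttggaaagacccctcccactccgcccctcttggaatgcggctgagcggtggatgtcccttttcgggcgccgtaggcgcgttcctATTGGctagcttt
CDC45: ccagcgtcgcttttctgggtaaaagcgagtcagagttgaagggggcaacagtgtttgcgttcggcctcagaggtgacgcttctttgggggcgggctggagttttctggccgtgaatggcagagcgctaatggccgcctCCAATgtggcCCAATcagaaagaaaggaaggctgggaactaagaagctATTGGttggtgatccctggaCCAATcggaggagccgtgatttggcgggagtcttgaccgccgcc
DBF4: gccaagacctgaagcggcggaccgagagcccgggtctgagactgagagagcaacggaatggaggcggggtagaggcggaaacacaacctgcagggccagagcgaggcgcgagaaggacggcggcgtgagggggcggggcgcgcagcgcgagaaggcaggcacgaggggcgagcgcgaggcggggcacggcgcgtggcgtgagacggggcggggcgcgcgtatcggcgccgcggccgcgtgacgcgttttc
CDC6: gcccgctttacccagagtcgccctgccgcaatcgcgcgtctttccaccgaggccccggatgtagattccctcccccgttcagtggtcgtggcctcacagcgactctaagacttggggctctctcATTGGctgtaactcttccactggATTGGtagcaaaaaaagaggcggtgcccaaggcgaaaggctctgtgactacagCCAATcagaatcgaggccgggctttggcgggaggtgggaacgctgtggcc
MCM6: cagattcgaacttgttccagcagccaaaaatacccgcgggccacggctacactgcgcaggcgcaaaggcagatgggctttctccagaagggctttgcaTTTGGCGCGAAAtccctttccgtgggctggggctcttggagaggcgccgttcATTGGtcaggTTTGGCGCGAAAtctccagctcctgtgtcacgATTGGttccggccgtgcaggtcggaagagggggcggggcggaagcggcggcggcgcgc

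A RefSeq window was found for 40 of the 45 genes, the others being MCM4, MCM5, RPA2, RPA3 and POLD3. A gene was counted as holding a motif if any of its windows did, and both strands were read. The E2F consensus was searched as 4 words, TTTGGCGC, TTTCCCGC, TTTCGCGC and TTTGCCGC, and 17 of the 40 (42.5%) held at least 1, beside 3.4% of 27305 genes. A CCAAT box (CCAAT) stood in 24 of the 40 (all genes 37.0%), a GC box (GGGCGG) in 30 (75.0%; all genes 46.2%), an E box (CACGTG) in 4 (10.0%; all genes 7.7%), and the CHR element (TTTGAA) in 1 (2.5%; all genes 16.1%). Of the printed windows, MCM6 held 4 E2F words in overlapping pairs that begin 152 and 90 bases before the start. The other 5 held none of the 4 words, and RRM2 held 3 CCAAT boxes, CDC45 4, CDC6 3, GINS1 1 and DBF4 0. A close variant, TTTGGCGG, was looked for after the printed windows had been seen. It begins 25 bases before the start of CDC45 and 28 before that of CDC6, and 4 of the 40 windows (10.0%) hold it, beside 0.7% of all genes. These are letter matches, not measured binding. The genes with an E2F word did not rise more in every step: their median log2 fold change was 0.52 against 0.43 for the 23 without in VCaP-CT, 0.17 against 0.41 in the step to VCaP-CT-ER, 0.25 against 0.39 in the step to VCaP-CT-BR, and 0.11 against 0.08 in the last step. The 23 without include CDC45 and CDC6, which hold the variant TTTGGCGG, and the split was not redone with that word. No test was made of these medians.

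In the MCM helicase, 5 of 6 genes rose in the first step. MCM2, a core subunit, was counted at 159.9, 151 and 153 CPM for VCaP-T and at 232, 245 and 215 for VCaP-CT. In the antiandrogen-resistant sublines it lay at 251, 234 and 220.4 CPM (VCaP-CT-ER), 200.3, 229 and 219 (VCaP-CT-BR) and 220.1, 216 and 209.7 (VCaP-CT-BR-ER). All 12 later libraries lay above VCaP-T, between 200.3 and 251 CPM. The log2 fold change was 0.59 ± 0.06 (adjusted p = 1.17e-08) in the first step and between −0.11 and 0.00, not called, in the other 3. MCM4 went further, from 129 ± 3.07 CPM for VCaP-T to 249 ± 4.23 for VCaP-CT and 340.0 ± 9.56 for VCaP-CT-BR. MCM5 and MCM6 were higher in VCaP-CT by 0.33 and 0.52 on the log2 scale, and MCM7 was not called, at 0.03 ± 0.04 (adjusted p = 0.522). MCM7 was lower by small amounts in both ENZ steps, −0.13 ± 0.04 with overlapping libraries and −0.28 ± 0.04 without overlap.

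MCM3, another subunit of the same ring, parted from the rest in VCaP-CT-ER. It was counted at 113, 115 and 111 CPM for VCaP-T, 182, 182 and 173 for VCaP-CT, 106, 113 and 107 for VCaP-CT-ER, 187, 180.3 and 180.0 for VCaP-CT-BR, and 173, 169 and 168 for VCaP-CT-BR-ER. VCaP-CT-ER overlapped VCaP-T again, and the other 3 later sublines kept the higher level. The step to VCaP-CT-ER changed it by −0.77 ± 0.04 (adjusted p = 2.61e-12), while the other 5 MCM genes gave values from −0.13 to 0.22. Per unit of exon length, the ratio of MCM3 to MCM2 within a library was 0.982 ± 0.0422 for VCaP-T, 1.04 ± 0.039 for VCaP-CT, 0.625 ± 0.0478 for VCaP-CT-ER, 1.14 ± 0.103 for VCaP-CT-BR and 1.06 ± 0.0142 for VCaP-CT-BR-ER (SD, n = 3). MCM3 lies on the minus strand at chr6:52264009-52284881 and shares no exon base with another gene.

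Origin recognition genes were higher after the first step except ORC3. ORC1, an ATP-binding subunit that is regulated through the cell cycle, was counted at 15.3, 15.2 and 15.9 CPM for VCaP-T, 20.6, 21.3 and 22.1 for VCaP-CT, 24.0, 21.8 and 22.6 for VCaP-CT-ER, 24.8, 23.3 and 23.9 for VCaP-CT-BR, and 25.0, 25.8 and 24.1 for VCaP-CT-BR-ER. The VCaP-T libraries lay below all others. The first step gave 0.47 ± 0.06 (adjusted p = 8.09e-07), and the call in the step to VCaP-CT-BR, 0.15 ± 0.06 (adjusted p = 0.0354), was lost in 7 of 12 alternatives. ORC2 and ORC6 were higher in VCaP-CT by 0.20 and 0.48. ORC3 was lower, by 0.48 ± 0.07 (adjusted p = 2.25e-06), from 57.1 ± 4.79 CPM to 40.6 ± 2.0. It returned to 54.3 ± 2.19 CPM for VCaP-CT-BR, 0.40 above VCaP-CT on the log2 scale, and was 46.3 ± 2.52 for VCaP-CT-BR-ER.

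Of the loading factors, CDC6 changed most. CDC6, the ATPase that brings the helicase to the origin, was counted at 34.0, 34.2 and 32.4 CPM for VCaP-T, 51.6, 46.0 and 49.96 for VCaP-CT, 96.8, 94.3 and 102 for VCaP-CT-ER, 68.5, 69.8 and 66.0 for VCaP-CT-BR, and 88.5, 87.3 and 89.4 for VCaP-CT-BR-ER. No 2 sublines overlapped. Each step raised it, by 0.56 ± 0.06, 0.94 ± 0.05 (adjusted p = 3.11e-12), 0.45 ± 0.05 and 0.38 ± 0.05 (adjusted p = 5.78e-06) in the order of the tree. Its gene lies on the plus strand at chr17:40287633-40304657 with no shared exon.

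CDT1, its partner in loading, did not follow. Its counts spread widely within sublines, at 19.5, 16.4 and 21.6 CPM for VCaP-T, 27.0, 33.2 and 22.1 for VCaP-CT, 25.3, 22.4 and 18.1 for VCaP-CT-ER, 15.2, 21.2 and 22.7 for VCaP-CT-BR, and 22.8, 23.3 and 21.0 for VCaP-CT-BR-ER. Libraries overlapped in every step but the first. It was higher in VCaP-CT by 0.53 ± 0.14 (adjusted p = 0.00309) and lower again in the step to VCaP-CT-ER, −0.37 ± 0.14 (adjusted p = 0.0283), and in the step to VCaP-CT-BR, −0.49 ± 0.14 (adjusted p = 0.0064). The call in VCaP-CT-ER was lost in 6 of 12 alternatives, at −0.21 (adjusted p = 0.238) without VCaP-CT replicate 2, and that in VCaP-CT-BR was lost in 1, at −0.32 (adjusted p = 0.077) without the same library. Geminin, its inhibitor, was counted at 31.8, 31.9 and 29.8 CPM for VCaP-T, 48.9, 44.4 and 51.5 for VCaP-CT, 52.3, 51.3 and 56.1 for VCaP-CT-ER, 63.5, 61.5 and 62.6 for VCaP-CT-BR, and 67.5, 66.7 and 67.8 for VCaP-CT-BR-ER. GMNN rose by 0.64 ± 0.06 in the first step (adjusted p = 6.24e-09) and by 0.35 ± 0.06 in the step to VCaP-CT-BR (adjusted p = 3.1e-05), and the ENZ steps gave 0.09 and 0.11, not called. The length-corrected ratio of GMNN to CDT1 was 2.23 ± 0.378 for VCaP-T, 2.46 ± 0.665 for VCaP-CT, 3.35 ± 0.740 for VCaP-CT-ER, 4.42 ± 1.05 for VCaP-CT-BR and 4.07 ± 0.260 for VCaP-CT-BR-ER.

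All 7 helicase activation genes were higher than in VCaP-T in each of the 3 antiandrogen-resistant sublines, with log2 medians of 1.02 for VCaP-CT-ER, 1.11 for VCaP-CT-BR and 1.21 for VCaP-CT-BR-ER. GINS1, a subunit of the GINS ring that holds the active helicase together, was counted at 27.7, 28.3 and 27.3 CPM for VCaP-T, 57.7, 56.2 and 61.8 for VCaP-CT, 88.2, 90.5 and 88.6 for VCaP-CT-ER, 80.3, 76.8 and 77.9 for VCaP-CT-BR, and 91.2, 87.5 and 91.7 for VCaP-CT-BR-ER. No subline overlapped the one it was derived from. The first step, 1.09 ± 0.05 (adjusted p = 7.08e-14), was the largest rise among the 45 there, a fold of 2.13. CDC45, which joins MCM and GINS in the active helicase, was counted at 43.6, 45.0 and 41.1 CPM for VCaP-T, 88.8, 86.4 and 81.1 for VCaP-CT, 96.3, 97.1 and 92.7 for VCaP-CT-ER, 113, 116 and 113 for VCaP-CT-BR, and 102, 99.6 and 99.2 for VCaP-CT-BR-ER. It rose by 0.99 ± 0.05 in the first step (adjusted p = 2.38e-13) and by 0.40 ± 0.05 for VCaP-CT-BR, and fell by 0.18 on the log2 scale from there to VCaP-CT-BR-ER (adjusted p = 0.0044). The step to VCaP-CT-ER gave 0.11 ± 0.05 (adjusted p = 0.0613) without overlap of the libraries, and it was called in 5 of 12 alternatives, such as DESeq2 (0.12, adjusted p = 0.0323) and the fit with the replicate block (0.11, adjusted p = 0.0473).

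GINS2, another subunit of the ring, was counted at 10.6, 10.2 and 9.10 CPM for VCaP-T, 11.5, 11.7 and 14.0 for VCaP-CT, 19.7, 18.3 and 19.2 for VCaP-CT-ER, 14.4, 15.6 and 14.8 for VCaP-CT-BR, and 17.4, 18.2 and 17.1 for VCaP-CT-BR-ER. Its main rise was the step to VCaP-CT-ER, 0.56 ± 0.08 (adjusted p = 3.19e-06), against 0.33 in the first step and 0.25 and 0.24 along the bicalutamide branch, where the calls were lost in 3 and 2 of 12 alternatives. GINS3 went from 6.33 ± 0.509 CPM for VCaP-T to 18.8 ± 0.673 for VCaP-CT-ER, with 10.9% of its exon bases shared with a gene on the other strand. MCM10, which helps to fire the helicase, was highest in VCaP-CT-BR-ER, at 47.6 ± 0.947 CPM against 19.8 ± 0.933 for VCaP-T.

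The kinase and its activator moved apart in the first step. CDC7, the kinase, was counted at 23.1, 24.2 and 23.3 CPM for VCaP-T, 35.8, 33.5 and 34.2 for VCaP-CT, 46.7, 48.5 and 52.2 for VCaP-CT-ER, 48.3, 43.7 and 46.0 for VCaP-CT-BR, and 45.5, 43.9 and 47.5 for VCaP-CT-BR-ER. DBF4, which the kinase needs for activity, was counted at 27.9, 29.4 and 28.4 CPM for VCaP-T, 24.3, 22.3 and 26.2 for VCaP-CT, 41.2, 40.4 and 46.1 for VCaP-CT-ER, 48.6, 44.4 and 51.7 for VCaP-CT-BR, and 38.8, 36.8 and 39.9 for VCaP-CT-BR-ER. CDC7 rose in the first step, by 0.56 ± 0.06, whereas DBF4 was lower, at −0.22 ± 0.07 (adjusted p = 0.0122), a call lost without VCaP-CT replicate 2 (−0.17, adjusted p = 0.0557). Both steps from VCaP-CT then raised both genes, DBF4 by 0.76 ± 0.07 for VCaP-CT-ER and by 0.97 ± 0.07 for VCaP-CT-BR (adjusted p = 5.92e-10), which was the largest rise of that step. In the last step DBF4 fell by 0.32 on the log2 scale (adjusted p = 0.000856) and CDC7 changed by −0.01 (adjusted p = 0.957). Pseudogenes named after DBF4 exist, and counts that their likeness could move were not separated.

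Among polymerases and primase, POLA1 rose at every step and its partners did not. POLA1, the catalytic subunit of polymerase alpha, was counted at 31.9, 34.3 and 32.8 CPM for VCaP-T, 58.3, 55.1 and 61.7 for VCaP-CT, 81.7, 79.2 and 87.7 for VCaP-CT-ER, 97.6, 89.1 and 96.8 for VCaP-CT-BR, and 114, 103 and 112 for VCaP-CT-BR-ER. No subline overlapped the one before it. The steps were 0.83 ± 0.06 (adjusted p = 1.56e-10), 0.45 ± 0.06, 0.68 ± 0.06 (adjusted p = 6.86e-09) and 0.22 ± 0.06 (adjusted p = 0.00474). POLA2, its regulatory subunit, was counted at 95.9, 93.4 and 90.8 CPM for VCaP-T, 124, 126 and 122 for VCaP-CT, 126, 126 and 120.0 for VCaP-CT-ER, 157, 158 and 157 for VCaP-CT-BR, and 107, 101 and 103 for VCaP-CT-BR-ER. It rose in the first step and in VCaP-CT-BR, by 0.42 and 0.33, and then fell by 0.59 on the log2 scale to VCaP-CT-BR-ER (SE 0.04, adjusted p = 4.96e-10), the largest fall of that step. PRIM1, the catalytic subunit of primase, was counted at 39.8, 37.8 and 36.2 CPM for VCaP-T, 38.6, 38.1 and 42.4 for VCaP-CT, 42.5, 45.0 and 45.6 for VCaP-CT-ER, 29.0, 26.0 and 27.7 for VCaP-CT-BR, and 29.8, 24.9 and 29.5 for VCaP-CT-BR-ER. The 6 libraries of the bicalutamide branch lay below the other 9. PRIM1 changed by −0.54 ± 0.07 for VCaP-CT-BR (adjusted p = 1.99e-06), while PRIM2, the large primase subunit, rose there by 0.42 ± 0.08. Of the exon bases of PRIM1, 6.8% are shared with other genes, 1 of them, NACA, on the same strand.

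The polymerase delta subunits also split in the step to VCaP-CT-ER. POLD2, an accessory subunit, was counted at 377, 341 and 356 CPM for VCaP-T, 481, 508 and 446 for VCaP-CT, 379, 383 and 347 for VCaP-CT-ER, 439.7, 496 and 463 for VCaP-CT-BR, and 432, 471 and 426 for VCaP-CT-BR-ER. VCaP-CT-ER overlapped VCaP-T and lay under the other 3. POLD3, another accessory subunit, was counted at 15.1, 13.7 and 12.3 CPM for VCaP-T, 17.4, 18.2 and 17.1 for VCaP-CT, 31.3, 33.0 and 31.8 for VCaP-CT-ER, 22.1, 21.4 and 21.8 for VCaP-CT-BR, and 32.1, 31.0 and 33.0 for VCaP-CT-BR-ER. The ENZ-resistant sublines shared the highest POLD3 level. The step to VCaP-CT-ER lowered POLD2 by 0.42 ± 0.06 (adjusted p = 2.92e-06) and raised POLD3 by 0.82 ± 0.07 (adjusted p = 1.14e-09), and the last step raised POLD3 by 0.56 ± 0.07 (adjusted p = 5.92e-07). POLD1, the catalytic subunit, gave −0.28 ± 0.13 in the step to VCaP-CT-ER (adjusted p = 0.0712), with one of the widest spreads within sublines. POLE2, the second subunit of polymerase epsilon, was counted at 11.97, 10.2 and 10.3 CPM for VCaP-T, 10.7, 10.1 and 13.5 for VCaP-CT, 20.5, 21.6 and 22.0 for VCaP-CT-ER, 17.2, 15.7 and 15.8 for VCaP-CT-BR, and 15.2, 14.98 and 15.2 for VCaP-CT-BR-ER. POLE2 and the catalytic POLE were not called in the first step (0.09 and 0.01), and both rose to VCaP-CT-ER, by 0.85 ± 0.09 and 0.64 ± 0.06. In VCaP-CT-BR, POLE2 rose by 0.48 ± 0.09 and POLE gave 0.06 ± 0.06 (adjusted p = 0.433).

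**Figure D3:**
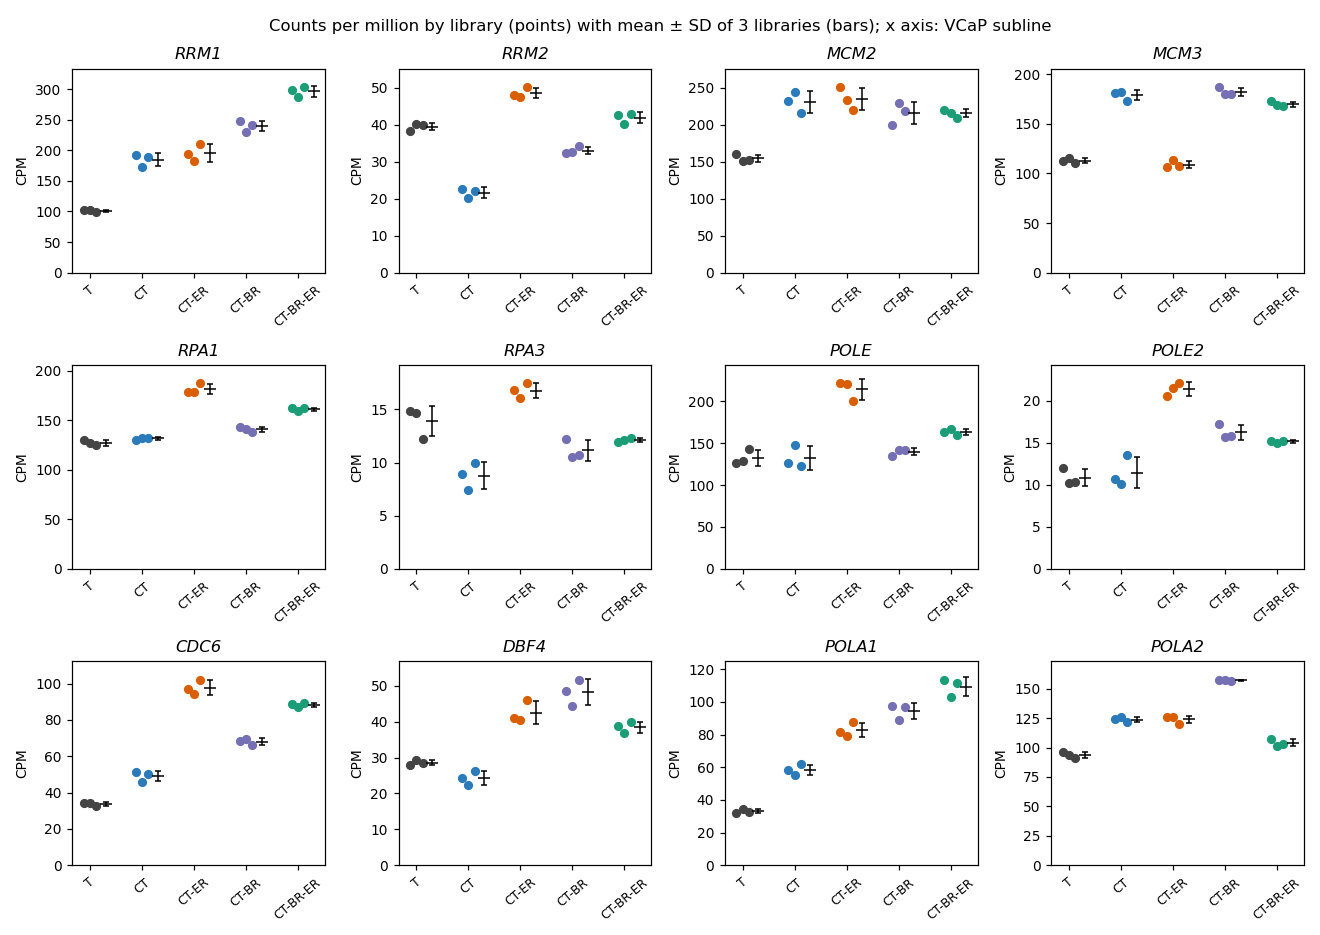
Each panel shows CPM of 1 gene, with a point per library and the mean ± SD of 3 libraries beside it, for VCaP-T and its 4 derived sublines in the order of the tree. RRM2 and RPA3 dip in VCaP-CT while RRM1 rises, MCM3 drops in VCaP-CT-ER while MCM2 does not, and POLA2 drops in VCaP-CT-BR-ER while POLA1 reaches its highest level.

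PCNA, the sliding clamp, was counted at 166, 168 and 152 CPM for VCaP-T, 292, 268 and 288 for VCaP-CT, 293, 281 and 304 for VCaP-CT-ER, 355, 368 and 379 for VCaP-CT-BR, and 305, 287 and 307 for VCaP-CT-BR-ER. VCaP-CT-BR stood above the other 3 later sublines, which overlapped. Its steps were 0.81 ± 0.05 (adjusted p = 2.02e-11), not called in VCaP-CT-ER (adjusted p = 0.976), 0.36 ± 0.05 and −0.29 ± 0.05 (adjusted p = 0.000136). RFC4, a subunit of the clamp loader, was counted at 30.1, 30.6 and 27.1 CPM for VCaP-T, 40.1, 38.3 and 35.8 for VCaP-CT, 61.4, 60.5 and 66.4 for VCaP-CT-ER, 49.4, 47.6 and 47.2 for VCaP-CT-BR, and 49.6, 48.9 and 50.7 for VCaP-CT-BR-ER. RFC4 stood highest in VCaP-CT-ER, after a step of 0.67 ± 0.06 (adjusted p = 4.77e-09). The 4 listed loader genes, RFC2, RFC3, RFC4 and RFC5, rose in both steps from VCaP-CT. The log2 rises were 0.32 to 0.67 for VCaP-CT-ER and 0.29 to 0.45 for VCaP-CT-BR. Before that, RFC2 and RFC3 had been lower in VCaP-CT by 0.20 and 0.26 on the log2 scale. RFC1, another loader subunit, was counted outside this list. Its mean was 63.2 CPM for VCaP-CT, 70.8 for VCaP-CT-ER and 85.6 for VCaP-CT-BR. FEN1, the flap nuclease that trims Okazaki fragments, was counted at 55.0, 57.1 and 53.3 CPM for VCaP-T, 77.2, 74.1 and 73.0 for VCaP-CT, 108, 107 and 111 for VCaP-CT-ER, 77.1, 81.4 and 78.0 for VCaP-CT-BR, and 99.9, 97.0 and 97.9 for VCaP-CT-BR-ER. FEN1 rose in both ENZ steps, by 0.48 ± 0.05 and 0.32 ± 0.05 (adjusted p = 9.07e-06), and gave 0.06 ± 0.05 for VCaP-CT-BR (adjusted p = 0.315). LIG1, the ligase that joins the fragments, rose in all 4 steps, by 0.17 to 0.40. PCNA, FEN1, RFC3 and RFC5 have named pseudogenes, and 10.6% of the exon bases of RFC5 are shared with other genes.

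Single-strand binding genes did not move as 1 complex in the first step. RPA3, the smallest subunit, was counted at 14.8, 14.6 and 12.2 CPM for VCaP-T, 8.91, 7.44 and 9.95 for VCaP-CT, 16.8, 16.1 and 17.4 for VCaP-CT-ER, 12.2, 10.5 and 10.7 for VCaP-CT-BR, and 11.9, 12.1 and 12.3 for VCaP-CT-BR-ER. VCaP-CT lay below every other subline and VCaP-CT-ER above. RPA3 fell by 0.65 on the log2 scale in the first step (SE 0.10, adjusted p = 7.63e-06), while RPA1 and RPA2 gave 0.06, not called, and 0.24, called higher. The step to VCaP-CT-ER raised all 3 subunits, RPA3 by 0.88 ± 0.10 (adjusted p = 1.04e-07), RPA1 by 0.41 and RPA2 by 0.16. In VCaP-CT-BR the RPA3 value was 0.33 ± 0.10 (adjusted p = 0.0102), not called without VCaP-CT replicate 2 (0.23, adjusted p = 0.0632) or VCaP-CT-BR replicate 1 (0.25, adjusted p = 0.0673). RPA3 lies on the minus strand at chr7:7636518-7718607, shares 3.7% of its exon bases with genes on the other strand and has named pseudogenes, as does RPA2.

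The subunits of ribonucleotide reductase moved in opposite directions in the first step. RRM1, the large subunit, was counted at 102, 103 and 99.7 CPM for VCaP-T, 193, 172 and 189.7 for VCaP-CT, 193, 182 and 210.5 for VCaP-CT-ER, 248, 231 and 241 for VCaP-CT-BR, and 299, 287 and 303 for VCaP-CT-BR-ER. RRM2, the small subunit that is made in S phase, was counted at 38.4, 40.3 and 39.9 CPM for VCaP-T, 22.7, 20.1 and 22.2 for VCaP-CT, 48.1, 47.5 and 50.2 for VCaP-CT-ER, 32.3, 32.5 and 34.2 for VCaP-CT-BR, and 42.6, 40.3 and 43.0 for VCaP-CT-BR-ER. RRM1 rose by 0.88 ± 0.06 for VCaP-CT (adjusted p = 2.02e-11) and RRM2 fell by 0.86 on the log2 scale (SE 0.06, adjusted p = 4.64e-11), the largest fall among the 45. The step to VCaP-CT-ER then raised RRM2 by 1.11 ± 0.06 (adjusted p = 6.62e-13), its libraries passing those of VCaP-T, while RRM1 gave 0.03 ± 0.06 (adjusted p = 0.69). Along the bicalutamide branch both rose at each step, RRM2 by 0.59 and 0.35 and RRM1 by 0.36 and 0.31.

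Per unit of exon length, the ratio of RRM2 to RRM1 was 0.306 ± 0.009 for VCaP-T, 0.0919 ± 0.0004 for VCaP-CT, 0.196 ± 0.0086 for VCaP-CT-ER, 0.108 ± 0.0051 for VCaP-CT-BR and 0.111 ± 0.0008 for VCaP-CT-BR-ER (SD, n = 3). No later subline regained the ratio of VCaP-T. RRM2 lies on the plus strand at chr2:10120698-10131419, 20.2% of its exon bases are shared with another annotated gene on the same strand, and it has named pseudogenes, so its absolute level is uncertain. TYMS, thymidylate synthase, rose at each step, by 0.79, 0.26, 0.39 and 0.24, and 26.2% of its exon bases are shared with genes on the other strand. TK1, thymidine kinase of the salvage route, was counted at 131, 119 and 127 CPM for VCaP-T, 115, 121 and 103 for VCaP-CT, 149, 142 and 123 for VCaP-CT-ER, 100.3, 128 and 114 for VCaP-CT-BR, and 137, 145 and 131 for VCaP-CT-BR-ER. TK1 was higher in both ENZ steps, by 0.23 ± 0.08 (adjusted p = 0.0149) and 0.28 ± 0.08 (adjusted p = 0.00696). The first of these was not called without VCaP-CT replicate 3 (adjusted p = 0.0644) or VCaP-CT-ER replicate 1 (adjusted p = 0.0616). All 4 nucleotide genes were higher in VCaP-CT-BR-ER than in VCaP-CT-BR, the one role for which that held.

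Of the E2F factors, E2F1, an activator of S-phase genes, was counted at 85.9, 81.7 and 87.0 CPM for VCaP-T, 123, 127 and 112 for VCaP-CT, 145, 145 and 132 for VCaP-CT-ER, 121, 139 and 131 for VCaP-CT-BR, and 126, 133 and 118 for VCaP-CT-BR-ER. VCaP-T lay below all others. The first step gave 0.52 ± 0.06 (adjusted p = 1.9e-07), and the step to VCaP-CT-ER 0.17 ± 0.06 (adjusted p = 0.0185), lost in 2 of 12 alternatives, the fits without VCaP-CT replicate 3 (0.14, adjusted p = 0.0745) and without VCaP-CT-ER replicate 2 (0.16, adjusted p = 0.0533). The steps on the bicalutamide branch gave 0.09 and −0.05, not called. E2F2 was not called in the first step and rose by 0.41 ± 0.07 for VCaP-CT-ER and 0.18 ± 0.07 for VCaP-CT-BR.

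The change under ENZ was compared between cells that had and had not been through bicalutamide. As a contrast in the same fit, the last step minus the ENZ step that starts at VCaP-CT was lower for 28 of 45 genes and higher for 5, with a median of −0.25, beside 24.5% and 25.2% of all genes tested and an all-gene median of 0.01. The 5 higher genes became 3 without VCaP-CT replicate 1 and 3 with library size alone as the scaling. The largest differences were in DBF4, at −1.08 ± 0.10 (adjusted p = 1.88e-08), and POLE2, at −0.94 ± 0.13 (adjusted p = 3.4e-06), which rose in the first of these steps and were lower or not called in the other. RRM2 differed by −0.76 ± 0.08 although it rose in both. In the other direction stood MCM3, 0.67 ± 0.06 (adjusted p = 1.34e-08), which fell in VCaP-CT-ER and was not called in VCaP-CT-BR-ER, POLD2 at 0.36 ± 0.08 (adjusted p = 0.00143), and CDT1 at 0.56 ± 0.20 (adjusted p = 0.0266). The call for CDT1 was lost in 8 of 18 alternatives, at 0.39 (adjusted p = 0.114) without VCaP-CT replicate 2. VCaP-CT-BR, the start of the later step, already stood above VCaP-CT for 32 of the 45 genes. Its label names ENZ, whereas the study names ENZ in this branch only for VCaP-CT-BR-ER.

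**Figure D4:**
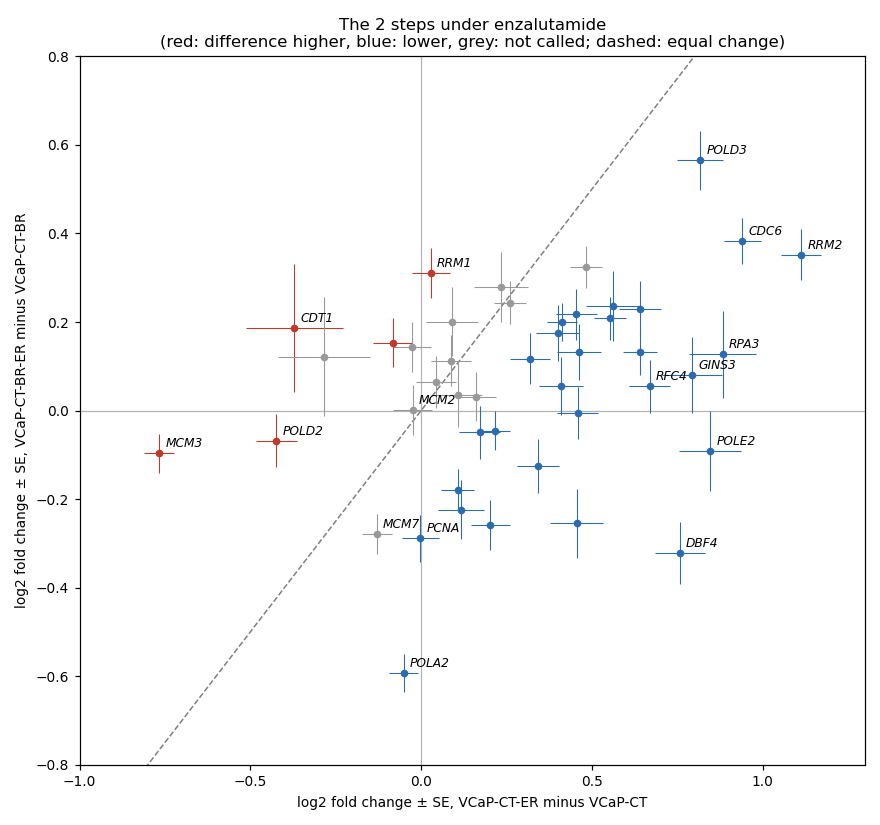
Each point is 1 replication gene, with the log2 fold change of VCaP-CT-ER over VCaP-CT on the x axis and of VCaP-CT-BR-ER over VCaP-CT-BR on the y axis, and bars of 1 SE. Blue points (28) changed less, or fell more, in the second step, red points (5) the other way, and points on the dashed line changed alike; RRM2, POLD3 and CDC6 rose in both.

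A further 47 replication genes, not among the 45, were counted in the same way. In the 4 steps, 28, 30, 36 and 15 of 47 were higher and 5, 7, 2 and 12 lower, with median log2 fold changes of 0.30, 0.30, 0.35 and 0.06. The shares called higher were 59.6%, 63.8%, 76.6% and 31.9%, beside 33.1%, 29.6%, 26.1% and 21.2% of all genes tested. The shares called lower were 10.6%, 14.9%, 4.26% and 25.5%, beside 32.2%, 31.2%, 27% and 21.7%. The largest rise among the 47 was RECQL4, a helicase of the firing step, at 1.38 ± 0.14 for VCaP-CT (adjusted p = 2.98e-08). The largest fall was POLD4, the small polymerase delta subunit, at −1.34 ± 0.11 for VCaP-CT-BR (adjusted p = 2.04e-09). The difference between the ENZ steps was lower for 25 and higher for 7 of the 47 (53.2% and 14.9%, all genes 24.5% and 25.2%). Of 20 mitosis genes, 14, 15, 20 and 5 were higher and 2, 1, 0 and 5 lower in the 4 steps, with medians of 0.27, 0.51, 0.86 and 0.07. These are 70%, 75%, 100% and 25% higher and 10%, 5%, 0% and 25% lower. For both lists the shares of the last step lay near those of all genes tested. In the steps to VCaP-CT-ER and VCaP-CT-BR the mitosis medians thus stood above those of the 45 replication genes (0.26 and 0.33). In the first and last steps they stood below (0.42 and 0.11). Against VCaP-T they were 0.81 for VCaP-CT-ER, 1.19 for VCaP-CT-BR and 1.24 for VCaP-CT-BR-ER, beside 0.65, 0.61 and 0.56. The difference between the ENZ steps was lower for 15 of the 20 mitosis genes and higher for 1 (75% and 5%, all genes 24.5% and 25.2%), with a median of −0.56. Medians of the lists were not tested against each other.

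Genes around each replication gene were read to see whether chromosome neighbours moved alongside. Neighbours were the tested genes whose middles lay within 1 Mb, with at least 4 of them. Across the 45 genes, the own log2 fold change and the median of the neighbours had r = 0.55, 0.49, 0.46 and 0.57 in the 4 steps, beside 0.26, 0.27, 0.27 and 0.31 across 19019 genes. These are descriptions across genes, which are not independent replicates. The gene and its neighbours shared a sign for 32, 24, 28 and 34 of the 45 (71.1%, 53.3%, 62.2% and 75.6%, beside 63%, 62.1%, 63.6% and 63.1% of all genes). RPA3 fell with its 15 neighbours in the first step (neighbour median −0.93) and rose with them in VCaP-CT-ER (0.56). MCM3 rose with its 12 neighbours in the first step (0.66) and fell with them in VCaP-CT-ER (−0.33), by more than their median. POLA2 fell with 86 neighbours (−0.48) in VCaP-CT-BR-ER, and POLA1 had a positive neighbour median in each step, from 0.18 to 0.49. RRM2 went with its 22 neighbours in the first step (−0.46) and against them in VCaP-CT-ER (−0.24). GINS1, CDC45, CDC6 and DBF4 went beyond their neighbours, whose medians in the step of each gene's largest rise were 0.16, 0.41, 0.32 and 0.20. PRIM1 for VCaP-CT-BR (−0.24), POLD2 for VCaP-CT-ER (−0.37) and POLD3 in the last step (0.06) had neighbours of the same sign. In the first 3 steps 38, 37 and 38 of the 45 genes lay above their neighbours' median, and 27 in the last. The same count was not made over all genes. Since most of the 45 were called higher in those 3 steps, these counts do not show movement apart from the region.

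**Figure D5:**
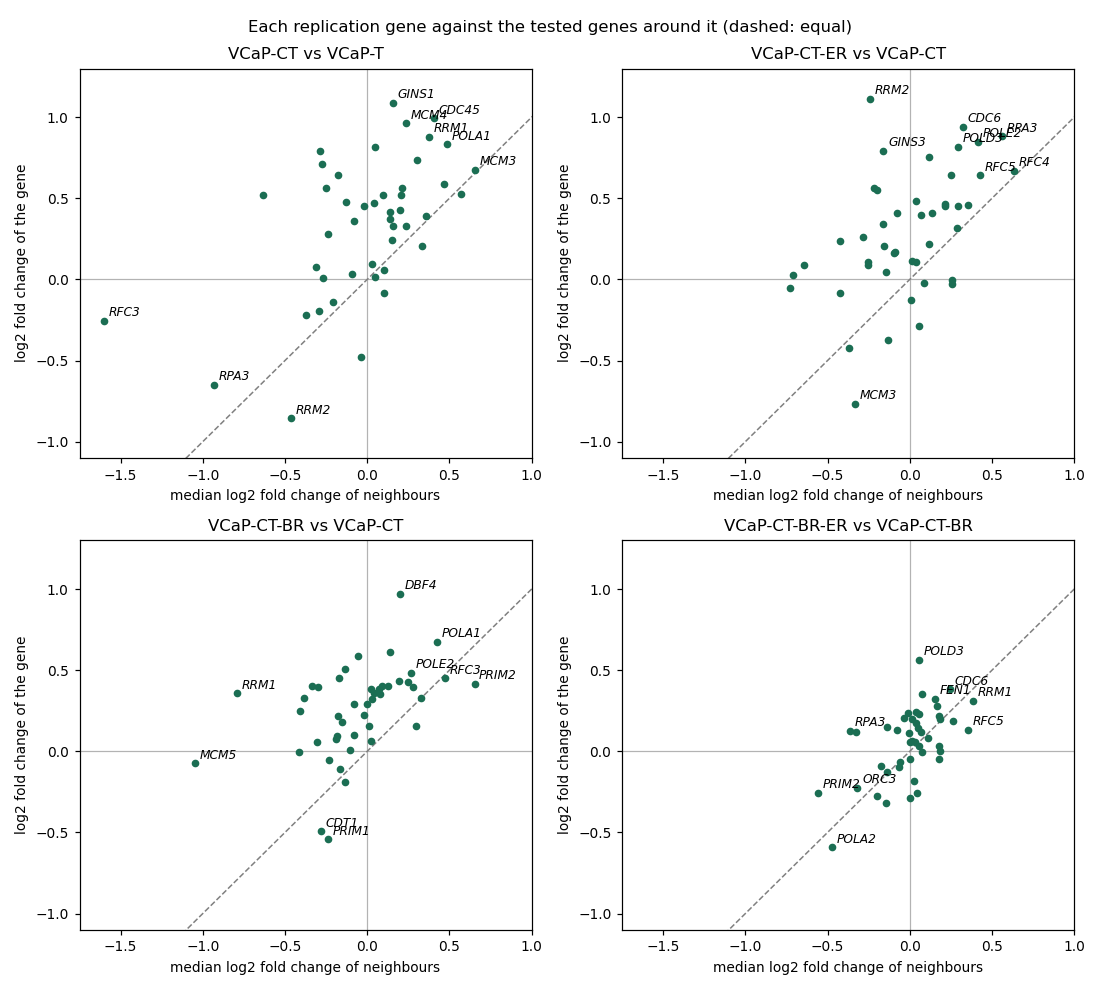
Each panel is 1 derivation step and each point 1 replication gene, with the median log2 fold change of tested genes within 1 Mb on the x axis and the gene's own log2 fold change on the y axis. Points above the dashed line have a higher signed log2 fold change than their neighbours' median, as 38, 37, 38 and 27 of 45 did in the 4 panels. This was not counted over all genes. RPA3 lies low on both axes in the first panel.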

How the data were processed

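Total RNA of 15 libraries was sequenced, and the deposited values are counts of fragments per gene, not normalised. The authors aligned reads with STAR 2.5.4b and counted read pairs on exons by gene with featureCounts 1.6.2 against GENCODE release 28, per the file headers without a strand option. Reads of a gene and of one overlapping it on the other strand were therefore not told apart. Of 58381 gene identifiers, 57754 were given a symbol, among them all 45 replication genes.

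Levels are CPM, counts scaled to the library total, and per kilobase of exon where genes are compared. Genes were kept with edgeR's filter at a minimum count of 10 (19621 genes), scaled by TMM (factors 0.984 to 1.029) and tested with the quasi-likelihood F test of edgeR 4.0.16 (R 4.3.3) in 1 model of the 5 sublines, with Benjamini-Hochberg adjustment over all genes tested and a threshold of 0.05. The scripts were tested on simulated counts. Alternatives were DESeq2 1.42.0, other scalings, no filter on low counts, only the compared sublines, a replicate block and leaving out each library. Genes given with every library were, for each step and for the difference between the ENZ steps, the 2 largest rises and the 2 largest falls that passed, and fixed genes for each role. RRM1 was added beside RRM2. The genes, lists and motifs were chosen with earlier results of these data known. With 33665716 to 46935279 fragments per library, the spread between 3 libraries, rather than counting, set the precision for the abundant genes. For genes with low counts, such as GINS3 at 6.33 CPM for VCaP-T, counting noise also took part and was not separated.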

Additional observations from a re-analysis of the deposited data

Results flagged for a closer look

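For 18 of the 24 replication genes given with every library, 4 of which were chosen for their size in this contrast, the change under ENZ differed between the 2 starting points, as a contrast in the same edgeR fit (step from VCaP-CT-BR minus step from VCaP-CT, log2 scale, 3 libraries per subline, adjusted over all genes tested). The rule also picked RRM2, CDC6, MCM3, POLD2, POLD3, POLA2 and DBF4 from the 2 steps that form the contrast. The 18 of 24 therefore cannot be set against the share of all genes. Of all 45 replication genes, 5 were higher and 28 lower in the same contrast, beside 25.2% and 24.5% of all genes tested. Among the pre-replication genes, the difference was 0.67 for MCM3, −0.56 for CDC6 (SE 0.08, adjusted p = 3.41e-06) and 0.56 for CDT1. Among the helicase activators it was −0.29 for CDC45 (adjusted p = 0.00145), −0.34 for GINS1 (adjusted p = 0.000247), −0.33 for GINS2 (adjusted p = 0.0202), −0.46 for CDC7 (adjusted p = 9.74e-05) and −1.08 for DBF4.

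Among the polymerase genes the difference was −0.24 for POLA1 (adjusted p = 0.0233), −0.54 for POLA2 (adjusted p = 2.66e-07), 0.36 for POLD2, −0.25 for POLD3 (adjusted p = 0.0325) and −0.94 for POLE2. The clamp PCNA gave −0.29 (adjusted p = 0.0031), its loader subunit RFC4 −0.61 (adjusted p = 4.45e-06), RPA3 −0.76 (adjusted p = 0.000116), RRM2 −0.76 (adjusted p = 1.29e-07) and E2F1 −0.22 (adjusted p = 0.0373). The calls of CDT1, E2F1, POLD3 and POLA1 were lost in 8, 8, 7 and 3 of 18 alternatives. Each subline has 3 libraries, so no library was tested for standing apart from its group.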

How the results depend on the processing

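No median turned its direction, nor did any gene value that was called in the main fit or the alternative. Turns of gene values called in neither were not counted. Of 1584 gene values under alternatives, 1514 kept their side of the threshold, 52 lost the call and 18 gained one, and of 326 counts and medians 278 moved by less than 1.5 times (counts) or by less than the SD of the genes' mean log2 CPM within sublines, 0.0178 (medians). With DESeq2 the median log2 fold change was 0.394 for VCaP-CT, 0.583 for VCaP-CT-BR and 0.539 for VCaP-CT-BR-ER, each against VCaP-T, and 3 genes were lower in VCaP-CT-ER than in VCaP-T. With upper quartile scaling the medians were 0.456 for VCaP-CT against VCaP-T, 0.285 for VCaP-CT-BR against VCaP-CT, 0.673 for VCaP-CT-ER against VCaP-T and −0.232 for the difference between the ENZ steps. With library size alone, VCaP-CT-ER against VCaP-CT gave a median of 0.311 and 2 lower genes, VCaP-CT-ER against VCaP-T 0.691, and the difference −0.309 with 3 higher genes. Without the filter on low counts the medians were 0.292 for VCaP-CT-ER against VCaP-CT, 0.676 against VCaP-T and −0.27 for the difference. The cause was not tested.

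Leaving out 1 library at a time, the medians ran from 0.376 to 0.436 for VCaP-CT against VCaP-T, 0.257 to 0.299 for VCaP-CT-ER and 0.323 to 0.353 for VCaP-CT-BR against VCaP-CT, 0.094 to 0.124 for VCaP-CT-BR-ER against VCaP-CT-BR, and −0.276 to −0.237 for the difference. Against VCaP-T they ran from 0.619 to 0.644 for VCaP-CT-ER, 0.565 to 0.61 for VCaP-CT-BR and 0.538 to 0.585 for VCaP-CT-BR-ER. Against VCaP-CT, lower genes numbered 2 to 5 for VCaP-CT-ER and 1 to 4 for VCaP-CT-BR, and VCaP-CT-ER had 1 to 3 against VCaP-T (3 without VCaP-T replicate 3). Higher genes in the difference numbered 3 to 6 (3 without VCaP-CT replicate 1). Higher genes in VCaP-CT-BR-ER against VCaP-CT-BR numbered 12 to 15.

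The deviations of same-numbered replicates from their subline mean had a mean r of −0.009 over 15255 genes. Different numbers gave 0.005, a value that centring on 3 libraries ties to the first, so it is no separate comparison. By pair of sublines the mean r of same numbers ran from −0.238 (VCaP-T with VCaP-CT) to 0.221 (VCaP-CT with VCaP-CT-ER). Single values ran from −0.429 (replicate 2, VCaP-T with VCaP-CT) to 0.412 (replicate 3, VCaP-CT with VCaP-CT-ER). In no pair of sublines did all 3 numbers exceed 0.1, so the numbers were not read as pairs. With the replicate block, 31 genes were higher and 6 lower in VCaP-CT against VCaP-T (median 0.418), 29 and 4 for VCaP-CT-ER, 32 and 2 for VCaP-CT-BR, 17 and 8 for VCaP-CT-BR-ER against its parent, and 5 and 28 in the difference (median −0.251).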

Other observations

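Within VCaP-CT, 14 of the 45 genes were highest in replicate 2 and lowest in replicate 3, as were 23.1% of all genes tested. They were CDT1, E2F1, E2F2, LIG1, MCM2, MCM3, MCM5, MCM7, POLA2, POLD1, POLD2, POLD3, POLE and TK1. For CDT1 the levels were 33.2 and 22.1 CPM. By contrast, 17 of the 45 were highest in replicate 1. Libraries 2 and 3 of VCaP-CT also differed most across genes of all replicate pairs, with a chi-square per degree of freedom of 20.26 against 3.25 for the closest pair.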
